A study of Lytechinus variegatus with 23 samples.

Results

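Receptor for egg jelly (Rej) genes were examined in RNA from intact Lytechinus variegatus embryos, a sea urchin. A gene identifier was taken as a member when the deposited table names it after a Rej gene of the purple urchin Strongylocentrotus purpuratus, and 20 of 27231 identifiers were, under 9 names. L_var_17573 (Rej5) drew attention to the family through its values in an earlier pass over these libraries, and which comparison singled it out is not recorded. Its values are therefore given throughout as a description with no test. The other 19 identifiers were chosen by name alone. Control embryos were set against embryos treated with alizarin (alizarin red, a calcium-binding dye), both sampled 12, 18, 24 and 30 hours post fertilisation (hpf). RNA of each of the 8 groups was sequenced in 3 libraries lettered A to C. Only B and C were present for alizarin at 18 hpf, so there were 23 libraries, of 8194215 to 11730004 counts. Dose, time of exposure and the origin of the replicate letters are not given in the sources used here, so the p-values rest on library-to-library spread that may be technical.

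Rej proteins take their name from sea urchin sperm, where the founding member binds sugar polymers of the egg jelly and takes part in triggering the acrosome reaction. The REJ module they share also occurs in polycystin-1, the large membrane protein mutated in human polycystic kidney disease, and in the purple urchin Rej3 pairs with the channel protein polycystin-2 on the sperm head. In vertebrates polycystins also act in cilia.

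The protein matches of the members overlapped. The table matches 12 of the 20 identifiers, those named Rej1, Rej3 and Rej4_1, to the purple urchin sperm receptor for egg jelly. It matches 6 (Rej4_1, Rej5 and Rej6) to mouse polycystin-1-like 2 and 5 (Rej4_1 and Rej8A) to human polycystin-1, and 3 (Rej7, Rej8L and Rej9) to no protein, so the Rej4_1 identifiers match both kinds. Several identifiers carry the same name, so reads of near-identical copies may be split between them and single levels are uncertain. Of the 20 members 16 had reads and 4 had none in any library. With 228601121 reads in all, 0 reads allow a level of up to 0.0131 CPM (the read count scaled to equal library depth) for each of these 4 over all libraries together, counting error only. A filter on low counts left 9 members for testing. The 11 others reached at most 15 reads in a library. Rej9 took 87.8% of the 53203 reads of the family and L_var_17573 6.41%. These are shares of reads, not corrected for gene length, and set no order of transcript levels.

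The Rej1 and Rej3 members, named after the sperm receptors, had few or no reads. The 7 Rej3 identifiers held 0 to 24 reads together per library with a median of 7. Over all libraries L_var_03511 had 41 reads, L_var_03762 had 52, L_var_03763 had 36 and L_var_03764 had 64, while L_var_03510, L_var_03759 and L_var_03760 had none. Of the Rej1 identifiers L_var_03765 had 32 reads in all and L_var_12713 none. None of them could be tested. Genes typical of sperm were also low in these embryos. Of 13 identifiers named after bindin, CatSper channels, the sperm sodium-proton exchanger and sperm histones, all had reads. Their summed level was 3.46 to 18.5 CPM over the control libraries and 4.12 to 13.2 CPM over the alizarin libraries. The highest was control replicate A of 12 hpf. There the Bindin_1 identifiers L_var_20997 and L_var_21214 held 83 and 58 reads, against at most 3 in any other library. Rej9, described next, was also highest in that library among those of 12 hpf. Control replicate B of 30 hpf also had a high sum, with Catsper4L (L_var_05068) alone at 13.5 CPM. Rej9 had its highest level of all libraries there, at 793 CPM. What set these libraries apart was not tested.

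Rej9 (L_var_13796) rose steeply in normal development and stood lower in alizarin embryos. In control libraries A, B and C its level was 9.23, 0.519 and 1.21 CPM at 12 hpf. It was 47.9, 35.6 and 92.3 CPM at 18 hpf. It reached 351, 748 and 614 CPM at 24 hpf and 616, 793 and 589 CPM at 30 hpf. Each control library of 18 hpf was above each of 12 hpf, and each of 24 hpf above each of 18 hpf, while the 24 and 30 hpf values overlapped. The mean at 30 hpf, 666 ± 111 CPM (SD, n = 3), was 182 times that at 12 hpf, 3.65 ± 4.84 CPM, where replicate A alone set most of the mean.

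**Figure D1:**
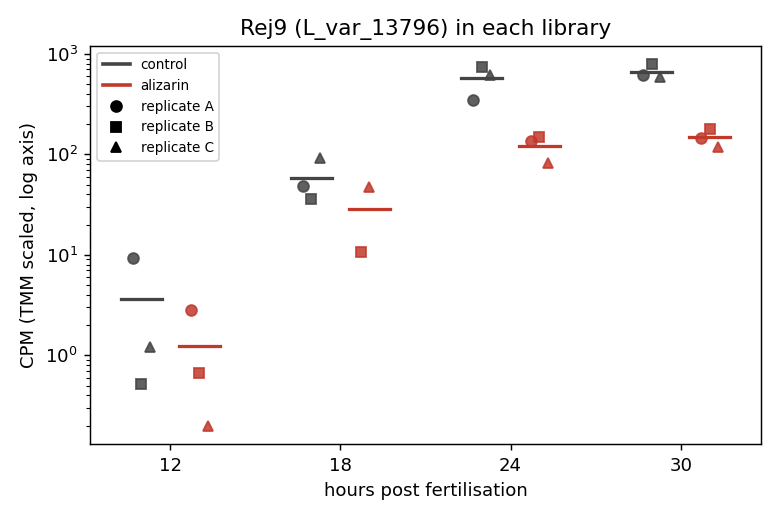
Level of Rej9 (L_var_13796) in CPM with TMM scaling on a log axis, against hours post fertilisation. Each point is 1 library, its shape the replicate letter, and bars are group means (3 libraries, 2 for alizarin at 18 hpf). Controls climb to 351 to 793 CPM at 24 and 30 hpf, and the alizarin libraries of those times lie at 81.6 to 178 CPM.

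The control rise of Rej9 passed the edgeR quasi-likelihood test, adjusted over all genes, at both early steps. From 12 to 18 hpf the log2 fold change was 3.94 (SE 0.82, adjusted p = 0.0029), so that Rej9 was the 1 called gene of the 8 tested members other than L_var_17573, where 14.9% of all genes were called. From 18 to 24 hpf it was 3.29 (SE 0.77, adjusted p = 0.0169), again 1 of 8 against 4.98% of all genes. This second call was lost without control replicate A or B of 18 hpf (adjusted p = 0.093 and 0.0962) or control B of 24 hpf (0.0596). Without control replicate A of 12 hpf the first step was 6.07. From 24 to 30 hpf the fitted value was 0.22 (SE 0.71, adjusted p = 0.918), and edgeR called 0 of 8 members against 0.928% of all genes. Of the 8 none, or 0, reached an unadjusted p under 0.05 for that step, where 14.1% of all genes did. DESeq2 also called 0 of the 8, and 508 of all genes.

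In alizarin embryos Rej9 also increased with time, but at 24 and 30 hpf it lay below every control of the same time. Alizarin libraries A, B and C held 2.84, 0.672 and 0.197 CPM at 12 hpf, and B and C held 10.6 and 47 CPM at 18 hpf. At 24 hpf the values were 137, 149 and 81.6 CPM, and at 30 hpf 146, 178 and 119 CPM. The groups overlapped at 12 and 18 hpf and did not overlap at 24 and 30 hpf. Of all genes, 10.7% and 17.8% were lower without overlap at 24 and 30 hpf. The step from 12 to 18 hpf under alizarin was called (log2 fold change 4.48, SE 0.90, edgeR adjusted p = 0.00302), as for 10.7% of all genes. Without alizarin replicate C of 18 hpf that step was 3.04 and missed the threshold (adjusted p = 0.127). The step from 18 to 24 hpf was not called (2.09, SE 0.86, adjusted p = 0.514; 0.423% of all genes were). It ranged from 1.38 without alizarin B of 18 hpf to 3.56 without alizarin C.

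Averaged over the 4 times, Rej9 fell in alizarin embryos by 1.74 on the log2 scale (SE 0.40, edgeR adjusted p = 0.015). It was the 1 called member of 8 for this mean effect, and 5.04% of all genes were called. The call held in 22 of the 23 fits that left out 1 library and was lost without alizarin replicate B of 18 hpf, at -1.57 (adjusted p = 0.0655). Over the fits that left out 1 library the mean effect on Rej9 ranged from -2.125 to -1.212. Control means were 4.66 times the alizarin mean at 24 hpf (571 ± 202 against 123 ± 36.1 CPM) and 4.51 times at 30 hpf (666 ± 111 against 148 ± 29.7 CPM). The log2 fold changes at these times were -2.22 (SE 0.74, adjusted p = 0.203) and -2.17 (SE 0.74, adjusted p = 0.122), so neither passed in the fit over all libraries.

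At 12 and 18 hpf the log2 fold changes of Rej9 were -1.56 (SE 0.84, edgeR adjusted p = 0.366) and -1.02 (SE 0.83, adjusted p = 0.974). The value at 12 hpf turned to 0.57 without control replicate A. That at 18 hpf ranged from -2.52 (without alizarin C) to -0.32 (without alizarin B), and was -0.54 without control C. A difference of the effect between the times was not called for Rej9 (adjusted p = 0.922), nor for any of the other 7 tested members, while 0.505% of all genes were called. At an unadjusted p under 0.05 there were 0 members for that difference, against 12.4% of all genes. DESeq2 called 0 of the members for it, and 725 of all genes.

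The calls at 24 and 30 hpf differed between fits. Fits of a single time also changed the genes that passed the filter and the scaling, and what made the difference was not tested. Fitted with the 24 hpf libraries alone, Rej9 passed (-2.20, edgeR adjusted p = 0.0339), with 0.953% of 15746 genes called. With the letter as a replicate block in that fit the call was lost (-2.18, adjusted p = 0.0588), with 0.426% of genes called. With the 30 hpf libraries alone it passed at -2.15 (adjusted p = 0.00098), with 13.1% of 15273 genes called. At 30 hpf libraries with the same letter deviated together, and the same fit with the letter as a replicate block gave -2.15 (adjusted p = 1.26e-06) with 33.5% of genes called. The block in the fit over all libraries left the value at 30 hpf uncalled (adjusted p = 0.118). DESeq2 called Rej9 at 30 hpf (adjusted p = 0.0393) and not at 24 hpf (0.0579).

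Set beside younger controls, Rej9 at 30 hpf under alizarin lay between the controls of 18 and 24 hpf. All 3 alizarin libraries of 30 hpf, at 119 to 178 CPM, were above the 35.6 to 92.3 CPM of controls at 18 hpf and below the 351 to 748 CPM of controls at 24 hpf. The log2 fold change against the 24 hpf controls was -1.95 (SE 0.73, edgeR adjusted p = 0.122; 5.45% of all genes were called). In whole embryos a lower level may come from fewer cells of a type or from less RNA per cell, and these cannot be told apart here.

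L_var_17573 (Rej5) lay between 3.85 and 13.9 CPM in 7 groups and was high in the control group of 30 hpf. Control libraries A, B and C held 11.6, 10.8 and 13.2 CPM at 12 hpf and 8.86, 10.3 and 9.91 CPM at 18 hpf. They held 10, 8.46 and 11.5 CPM at 24 hpf and 52.7, 46.5 and 51.6 CPM at 30 hpf, from 502, 427 and 433 reads. The 3 control libraries of 30 hpf agree closely and lie far above the other 20 libraries, the highest of which held 13.9 CPM.

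Under alizarin the high level at 30 hpf was not reached. Alizarin libraries of L_var_17573 held 6.93, 10.7 and 3.85 CPM at 12 hpf, and 9.48 and 7.99 CPM (B and C) at 18 hpf. At 24 hpf they held 13.7, 13.9 and 11 CPM, and at 30 hpf 10.9, 7.52 and 9.53 CPM, from 66 to 78 reads. Means at 30 hpf were 50.3 ± 3.31 CPM (SD, n = 3) for controls against 9.31 ± 1.69 CPM for alizarin, a ratio of 5.4 and a fitted log2 fold change of -2.43 (SE 0.29). With TMM scaling the alizarin mean of 30 hpf was within the range of the controls of 12 to 24 hpf. Per deposited library total it was 6.98 CPM, below the control means of 11.8, 11 and 9.07 CPM at 12, 18 and 24 hpf.

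At the other times the differences of L_var_17573 were smaller. At 12 hpf the highest alizarin library (10.7 CPM) lay just under the lowest control (10.8 CPM), and per deposited library total the groups overlapped. The fitted value there was a log2 fold change of -0.73 (SE 0.28) that ranged from -1.13 (without alizarin B) to -0.43 (without alizarin C) when 1 library was left out. At 24 hpf the fitted value was 0.37 (SE 0.28) with overlapping groups under TMM scaling. Per deposited library total the groups of 24 hpf did not overlap, with means of 15.9 CPM for alizarin and 9.07 CPM for controls. From 24 to 30 hpf the fitted log2 change was 2.33 (SE 0.29) in controls and -0.47 (SE 0.28) in alizarin embryos. EdgeR called 3.32% of all genes for alizarin at 30 hpf, a share given here for scale only.

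**Figure D2:**
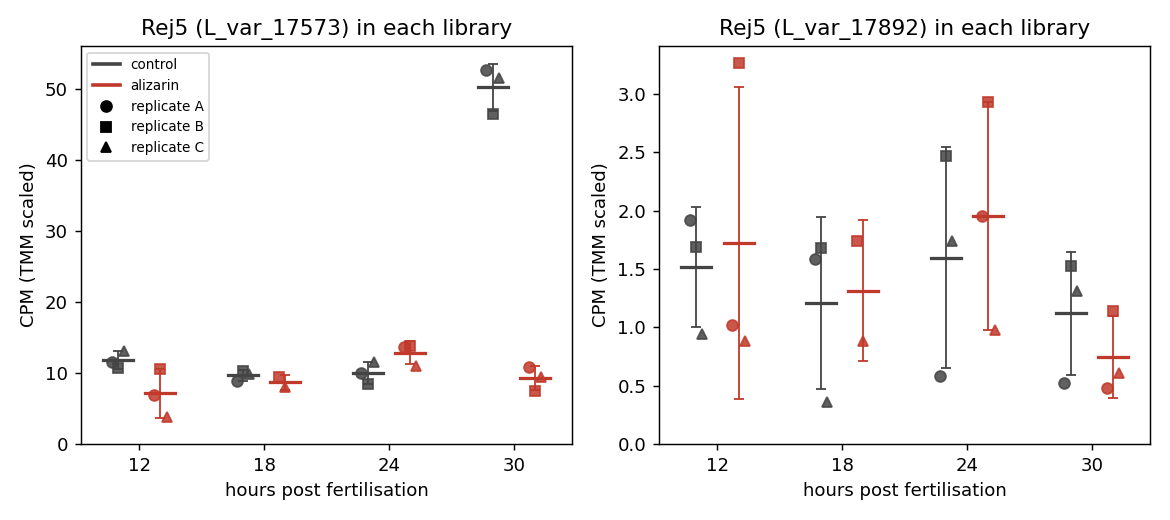
Level in CPM with TMM scaling of the Rej5 identifiers L_var_17573 (left) and L_var_17892 (right) against hours post fertilisation; the vertical scales differ. Points are libraries, with the replicate letter as shape, and bars are group means ± SD (n = 3, 2 for alizarin at 18 hpf). L_var_17573 is at 46.5 to 52.7 CPM in controls of 30 hpf and at most 13.9 CPM elsewhere, and L_var_17892 stays under 3.3 CPM.

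The second Rej5 identifier, L_var_17892, carries the same protein matches and did not show the pattern of L_var_17573. Controls of 30 hpf held 0.525, 1.52 and 1.31 CPM and alizarin libraries 0.48, 1.14 and 0.611 CPM, so the groups overlapped. The log2 fold change was -0.56 (SE 0.73, edgeR adjusted p = 0.773). Over the 23 libraries the log2 levels of the pair had a Pearson r of -0.00765, a description in which the points share library and depth and which for L_var_17892 rests on 3 to 38 reads a library.

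The named genes most like L_var_17573 over the 8 group means are given as a description, since the ranking uses the same values that drew attention to it. By Pearson correlation of log2 CPM among 11632 named genes, the closest were Amy_3 (L_var_01615, r = 0.957), named after an amylase, and Depdc6 (L_var_25157, r = 0.955), named after an inhibitor of mTOR. Next came both Chrna9_5 identifiers (L_var_11097 and L_var_11233, r = 0.95 each), named after a nicotinic acetylcholine receptor subunit. Phox2 (L_var_00486, r = 0.95), named after a homeobox regulator of neurons, and Chrna9_4 (L_var_11094, r = 0.94) followed. The 3 Chrna9 identifiers are near copies by name and may share reads. Apart from Depdc6 they were near absent outside controls of 30 hpf. Phox2 was at 3.26 CPM there and at no more than 0.0787 CPM elsewhere, and Chrna9_4 at 18.8 CPM against at most 0.498 CPM. Depdc6 differed little in level, at 7.12 CPM in controls of 30 hpf and 3.75 to 5.49 CPM elsewhere. Over the 23 libraries its r fell to 0.381. Apart from Depdc6, each passed the minimum of 2 CPM through controls of 30 hpf alone, so the ranking was bound to favour genes high in that group. By rank correlation over the means 0 of the 6 remained among the closest 6.

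**Figure D3:**
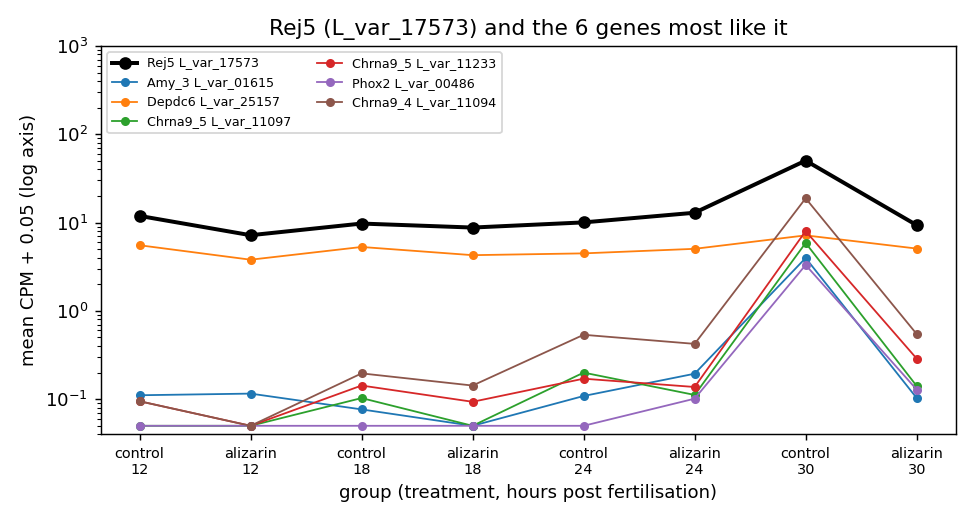
Mean CPM plus 0.05 on a log axis in each of the 8 groups for Rej5 L_var_17573 and the 6 named genes with the most similar profile; lines only join the points of a gene. Controls of 30 hpf are the highest group for every gene drawn, with L_var_17573 at 50.3 CPM and Chrna9_4 at 18.8 CPM there.

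The Rej8A identifiers, matched to human polycystin-1, were lower under alizarin at 30 hpf in every library but not past the test over all libraries. L_var_10593 held 3.25, 5.23 and 3.93 CPM in controls A, B and C of 30 hpf and 1.44, 2.28 and 2.32 CPM in alizarin libraries. Its log2 fold change was -1.03 (SE 0.60, edgeR adjusted p = 0.423). L_var_10739 held 5.04, 5.12 and 3.22 CPM in those controls and 1.28, 1.25 and 1.71 CPM in the alizarin libraries, which gave -1.65 (SE 0.69, adjusted p = 0.225). The groups did not overlap for either identifier, as for 17.8% of all genes with alizarin lower at 30 hpf.

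With the 30 hpf libraries alone edgeR called L_var_10739 (adjusted p = 0.0223), as it did 13.1% of all genes. The replicate block in that fit called both Rej8A identifiers (adjusted p = 0.0187 for L_var_10593 and 0.00231 for L_var_10739), and 33.5% of all genes. The log2 levels of the pair followed each other over the 23 libraries (Pearson r = 0.796, which shared reads of similar copies would also give). In controls the means of L_var_10593 were 1.32, 2.52, 3.68 and 4.14 CPM from 12 to 30 hpf, and no step was called. At 12 hpf L_var_10593 was higher in alizarin embryos in every library, at 2.99, 2.98 and 1.87 CPM against 0.914, 1.69 and 1.35 CPM (0.998 on the log2 scale, SE 0.62, edgeR adjusted p = 0.43). At that time 7.12% of all genes were higher without overlap.

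**Figure D4:**
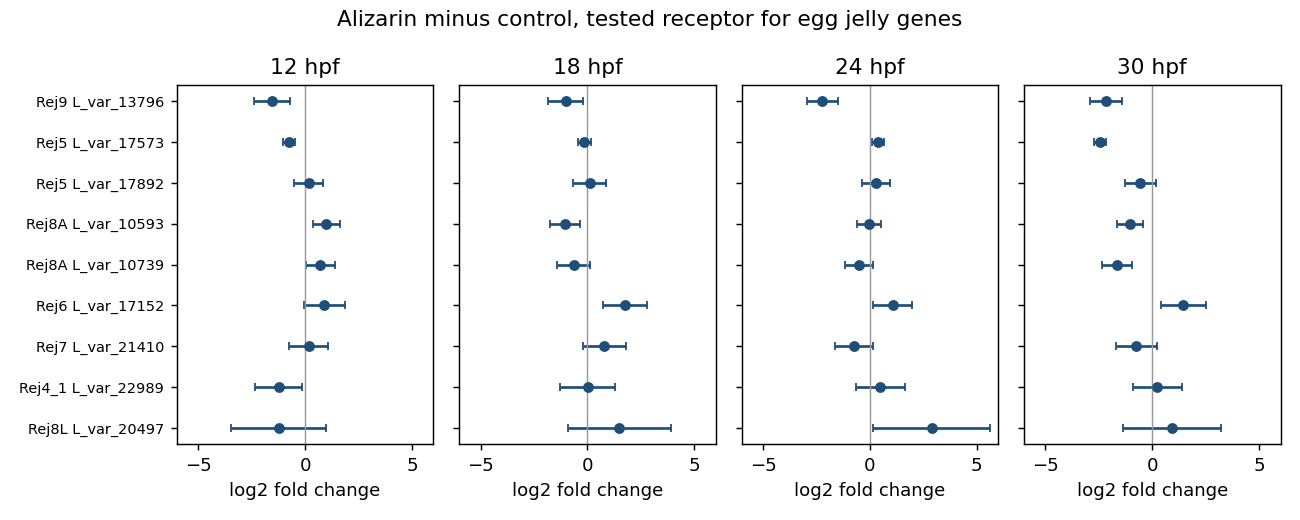
Fitted log2 fold change, alizarin minus control, of the 9 tested Rej identifiers at each time, with bars of 1 SE. Rej9 lies to the left of 0 at all 4 times, L_var_17573 is at -2.43 at 30 hpf and 0.37 at 24 hpf, and the SE of Rej8L is above 2 at each time.

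Rej8L (L_var_20497) had reads mainly in replicate C libraries, of both control and alizarin embryos. Replicate C held 131, 51 and 37 reads in controls of 12, 18 and 30 hpf. In alizarin embryos it held 75, 108, 49 and 67 reads from 12 to 30 hpf. The 15 A and B libraries held 0 to 6 reads. The exception was control replicate C of 24 hpf with 0 reads, which allows up to 0.257 CPM there, while the other 7 C libraries were at 4.41 to 17.6 CPM. Of 27231 identifiers 4, Rej8L among them, had these 7 C libraries above all 15 A and B libraries. Another 5 had them below all 15. This pattern was taken from Rej8L itself. No contrast of Rej8L was called, and its SE exceeded 2 on the log2 scale at every time.

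How the letters were assigned is not given in the sources used here, and the comparisons without a block do not use them. Without control C of 24 hpf the mean effect on Rej9 was -1.73 (edgeR adjusted p = 0.0241), and its log2 fold change at 24 hpf was -2.16 (adjusted p = 0.363).

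**Figure D5:**
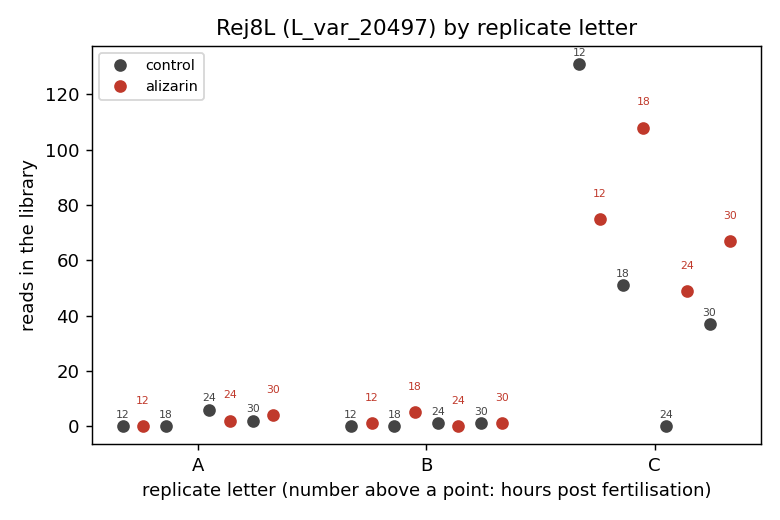
Reads of Rej8L (L_var_20497) in each library by replicate letter, with the hours post fertilisation printed above each point. C libraries hold 37 to 131 reads, apart from control C of 24 hpf with 0, and A and B libraries hold 0 to 6.

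The remaining tested members were close to the limit of detection. Rej6 (L_var_17152), matched to polycystin-1-like 2, had 0 to 18 reads a library. Its mean effect was 1.31 on the log2 scale (SE 0.49, unadjusted p = 0.0155, edgeR adjusted p = 0.128), and its fitted value was above 0 at all 4 times. Rej7 (L_var_21410) had 1 to 31 reads and a mean effect of -0.13 (SE 0.47, adjusted p = 0.911). The untested Rej4_1 identifiers L_var_22985 and L_var_22986 had 25 and 108 reads in all. Rej4_1 L_var_22989 had 0 to 44 reads and a mean effect of -0.12 (SE 0.59, adjusted p = 0.938). The sign of the mean effect on Rej7 and Rej4_1 turned when single libraries were left out. No difference of these genes was detectable at this depth.

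Counted as a family, the members other than L_var_17573 did not pass at any single time in the main fit. In the edgeR fit over all libraries 0 of the 8 members other than L_var_17573 were called at 12, 18, 24 or 30 hpf, where 0.0977%, 0%, 0.842% and 3.32% of all genes were. At an unadjusted p under 0.05 the members numbered 0, 0, 1 and 2 in that order, against 16.1%, 5.67%, 11.8% and 16.7% of all genes. DESeq2 called 0, 0, 0 and 1 of them, and 682, 50, 499 and 1194 of all genes. Groups did not overlap, with alizarin lower, for 1 of 8 at 24 hpf (10.7% of all genes) and 3 of 8 at 30 hpf (17.8% of all genes), namely Rej9 and both Rej8A identifiers. They did not overlap, with alizarin higher, for 1 of 8 at 12 hpf (Rej8A L_var_10593; 7.12% of all genes) and 1 of 8 at 18 hpf (Rej6; 11.1%). The median log2 fold change of the 8 was 0.17, 0.05, 0.13 and -0.65 at 12, 18, 24 and 30 hpf, and that of all genes tested 0.02, -0.01, 0.02 and 0.03.

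Genes with names beginning with Pkd, not all of them polycystic kidney disease genes, were examined beside the family. The table holds 12 such identifiers and 10 were tested. They include polycystin-2 and its relative Pkd2L1_1, fibrocystin-like genes (Pkdh1l1), and Pkdcc kinases that are no polycystins. The Pkdcc kinases that were tested count in all list values below, which are therefore not those of polycystins alone. At 30 hpf all 10 fitted values were below 0, with a median of -0.42 against 0.03 for all genes, and 1 was called, where 3.32% of all genes were. At an unadjusted p under 0.05 there were 3 of 10 against 16.7% of all genes. That gene, Pkd2L1_1 (L_var_21409), fell: its mean was 64.3 ± 7.45 CPM without and 22.9 ± 2.73 CPM with alizarin (-1.49, SE 0.38, edgeR adjusted p = 0.037). That call was lost without any 1 of the 6 libraries of 30 hpf (adjusted p from 0.0853 to 0.126). Polycystin-2 (Pkd2, L_var_26125), the channel partner of Rej3 in purple urchin sperm, averaged 68 ± 7.29 CPM in controls against 29.3 ± 8.43 CPM under alizarin (-1.21, SE 0.37, edgeR adjusted p = 0.0715). With the 30 hpf libraries alone Pkd2 was called (adjusted p = 0.0154, and 0.00038 with the replicate block), as with DESeq2 (0.0241). Those 2 edgeR fits called 13.1% and 33.5% of all genes. In the mean effect 1 of 10 was called (5.04% of all genes were), Pkdh1l1 (L_var_19564), which fell by 0.90 (SE 0.18, adjusted p = 0.00573). The other 3 most read were not called in the mean effect. Pkdh1l1 L_var_19554 was at -0.96 (edgeR adjusted p = 0.0564), Pkdcc (L_var_05258) at 0.33 (0.275) and Pkd (L_var_13385) at 0.26 (0.51). With edgeR 0 of the 10 were called at 12, 18 or 24 hpf, and 2, 2 and 3 had an unadjusted p under 0.05 against 16.1%, 5.67% and 11.8% of all genes.

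Egg and sperm genes of fertilisation formed the other comparison list, with 53 identifiers of which 31 were tested. Many of these, 31 of 53, are named after hyalin, a protein of the extraembryonic layer, or the egg bindin receptor Ebr1, and their names cover repeat proteins with other uses. In the mean alizarin effect 5 fell, 0 rose and the other 26 were not called; the median was -0.16 against -0.01 for all genes tested, of which 5.04% were called. At 24 and 30 hpf 2 of 31 fell at each time, against 0.842% and 3.32% of all genes called. The most read of them, Ebr1 (L_var_23665), fell by 0.73 in the mean effect (SE 0.16, edgeR adjusted p = 0.0109), and at 30 hpf it averaged 2979 ± 428 CPM without and 1250 ± 141 CPM with alizarin (-1.25, adjusted p = 0.03). The call at 30 hpf was lost without any 1 of the 6 libraries of that time (adjusted p from 0.0719 to 0.124). Hyalin15 (L_var_03194) fell at 24 hpf, with means of 2613 ± 672 CPM without and 632 ± 111 CPM with alizarin (-2.05, SE 0.46, adjusted p = 0.0401). This call was lost without control B or C or alizarin A, B or C of 24 hpf (adjusted p from 0.0784 to 0.196). Hyalin2 (L_var_16882) fell by 0.98 in the mean effect (SE 0.24, adjusted p = 0.0237), a call lost without alizarin B of 18 hpf (0.0977). Ebr1-3 (L_var_02610) was not called (-0.46, edgeR adjusted p = 0.0892; 0.0288 with DESeq2). It passed without control A or alizarin A of 12 hpf (adjusted p = 0.0438 and 0.0491).

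The libraries carried markers of the embryo's main tissues in all groups, with neurons less certain. The summed level of the skeletogenic genes Sm50 and Msp130 ranged from 758 to 2480 CPM over control libraries and from 631 to 2253 CPM over alizarin libraries. That of 4 endoderm identifiers (Endo16, FoxA and Blimp1) ranged from 1251 to 2800 and from 918 to 2565 CPM. The pigment cell genes Pks1 and Gcm ranged from 808 to 3079 and from 199 to 1198 CPM. Ectoderm markers (Tbx2/3) summed to 178 CPM or more in every library, animal pole and ciliary band markers (FoxQ2 and Onecut) to 45.7 CPM or more and neuron markers (Syt1) to 17.6 CPM or more. The neuron sum came mostly from Syt1-2 (L_var_06295), at 42.2, 31.1 and 26.1 CPM in controls A, B and C of 12 hpf. Syt1-1 (L_var_26603) was at 2.01, 1.04 and 0.673 CPM there, so the sum does not by itself show neurons in every group. At 30 hpf, where Rej9 and Rej8A were lower, some markers also stood apart between the groups. The FoxQ2_1 identifiers L_var_17031 and L_var_17029 averaged 2.94 ± 0.559 and 3.73 ± 1.08 CPM in controls against 82.6 ± 6.73 and 129 ± 19.8 CPM under alizarin. The Onecut identifiers of the same list went the other way. L_var_11694 averaged 21.2 ± 4.68 CPM in controls against 10.9 ± 1.91 CPM. L_var_11599 averaged 24.1 ± 12.3 against 13.1 ± 8.35 CPM with overlapping groups. Pks1 (L_var_23510) averaged 807 ± 103 against 256 ± 83 CPM and Gcm (L_var_24790) 110 ± 8.43 against 42.5 ± 15.8 CPM. Tbx2/3 (L_var_04520) averaged 316.3 ± 28.42 against 179.5 ± 2.008 CPM. Sm50 (L_var_27181) averaged 656.4 ± 42.85 against 295.9 ± 154.6 CPM, while the Msp130 groups overlapped. FoxA (L_var_14241) was higher under alizarin, at 971.4 ± 71.66 against 717.5 ± 23.99 CPM in controls. The Blimp1 identifiers were also higher, and the Endo16 groups overlapped. Pks1 at 24 hpf averaged 1874 ± 273 against 846 ± 165 CPM. The part of cell composition in the Rej differences was not tested.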

How the data were processed

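The authors deposited raw read counts per gene and library. Reads were aligned with STAR 2.7.1a, per the submitters' processing notes; the genome build, annotation and counter are not given in the sources used here. RNA was extracted with TRIzol and libraries were made with a DNBSEQ mRNA kit, per the labels' protocols. The 109578 lines of the table repeat a gene for each protein match. They were reduced to 27231 identifiers with 0 conflicts, 1 identifier with unreadable counts being left out. Columns were joined to samples by name, with 0 columns of values unmapped.

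Genes were kept with filterByExpr (minimum count 10), which left 18419. After TMM scaling, edgeR's quasi-likelihood test (robust) was run on 8 group means over 23 libraries, leaving 15 residual degrees of freedom. P-values were adjusted by Benjamini-Hochberg across every tested gene and called under 0.05. A SE was obtained as the size of the log2 fold change over the square root of F. Levels are CPM on TMM library sizes; ± is the SD. Log2 levels used a prior count of 2 for the ranking by similarity and the correlations of same-letter libraries. Correlations between pairs of Rej identifiers used log2 of CPM plus 0.5. The fit was tested on simulated data. Software: edgeR 4.0.16 and DESeq2 1.42.0 with limma 3.58.1 in R 4.3.3; Python 3.11.15, numpy 2.4.6, pandas 2.3.3 and matplotlib 3.10.9. Alternatives were DESeq2, other scalings, no filter, single libraries left out, a replicate block and fits of only the groups compared. The contrasts between alizarin times and against younger controls, the block within a time and the levels of Rej8L by replicate letter were chosen after seeing the data.

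Every Rej identifier is named, with the 6 named genes (at least 2 CPM in a group) most like L_var_17573. The most read genes of each list are also named, 6 with names beginning with Pkd and 4 fertilisation genes. Members and lists were chosen with earlier results of these data known. Same-letter control and alizarin libraries deviated from their group means with correlations of 0.503, 0.663 and 0.57 (A, B and C) at 30 hpf. The 12 hpf values were 0.126, -0.0215 and 0.128. Those of 18 hpf (B and C) were 0.082 and 0.112, and 24 hpf gave -0.242, 0.192 and -0.0522. By these correlations the letters were taken to pair libraries at 30 hpf alone, and the main fit over all libraries leaves that pairing out. The reads of Rej8L went with letter C at 12 and 18 hpf too. Sequences of the members were not used here. Intervals and floors cover counting error only.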

Additional observations from a re-analysis of the deposited data

Results flagged for a closer look

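Rej8A L_var_10593 was set apart because all of its alizarin libraries lay above the controls at 12 hpf (log2 fold change 0.998) and all below them at 30 hpf (-1.03). Of all genes, 7.12% were higher without overlap at 12 hpf and 17.8% were lower without overlap at 30 hpf. Neither fold change of L_var_10593 was called by edgeR (adjusted p = 0.43 and 0.423). The edgeR test of a difference between the 4 times gave an unadjusted p of 0.0974 and an adjusted p of 0.512, and the direct contrast of 12 against 30 hpf was not tested. The second Rej8A identifier, L_var_10739, had fitted values of 0.71 and -1.65 at these times, with overlapping groups at 12 hpf.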

How the results depend on the processing

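The count of members called for alizarin at 24 hpf was 0 of 8. With the 24 hpf libraries fitted alone it became 1 of the 5 that passed the filter, with 0.953% of all genes called. At 30 hpf it was 0 of 8 and became 2 of 3 with the 30 hpf libraries fitted alone (13.1% of all genes called). It was 3 of 3 with a replicate block in that fit (33.5% of all genes), and 1 with DESeq2 (1194 of all genes). The replicate block over all libraries left each count of members as it was. In the fit of 24 hpf alone the block took the count from 1 to 0, and in that of 12 hpf it was 0 with and without the block. Leaving out 1 library gave counts of 0 to 1 for the mean effect and 0 to 1 for controls of 24 against 18 hpf, and for the alizarin step from 12 to 18 hpf without replicate C of 18 hpf the call of Rej9 was lost. The counts at the single times, for the control steps of 18 against 12 and 30 against 24 hpf and for the difference between times stayed as they were. With single libraries left out, the log2 fold change of Rej9 at 12 hpf ranged from -3.08 to 0.569 (above 0 without control A) and that of controls of 30 against 24 hpf from -0.0329 (without control A of 24 hpf) to 0.465. The mean effect on Rej7 ranged from -0.748 to 0.0869 and that on Rej4_1 from -0.419 to 0.57, the latter being 0.212 with the replicate block over all libraries. The cause was not tested. With CPM per deposited library total, the means of L_var_17573 became 11 CPM for controls and 9.86 CPM for alizarin at 18 hpf, 15.9 CPM for alizarin at 24 hpf, and 42 CPM for controls against 6.98 CPM for alizarin at 30 hpf. Of the 6 genes most like it, 4 were kept with the correlation over the 23 libraries and 0 with the rank correlation over the group means. Over all genes, leaving out 1 library gave 1 to 911 calls at 12 hpf (18 in full), 41 to 167 at 24 hpf (155), 170 to 252 at 30 hpf (612) and 385 to 1416 for the mean effect (928). DESeq2 gave 682, 50, 499 and 1194 calls from 12 to 30 hpf and 1703 for the mean effect. In controls leaving out 1 library gave 1776 to 2887 calls from 12 to 18 hpf (2750), 386 to 863 from 18 to 24 hpf (918) and 45 to 156 from 24 to 30 hpf (171). For a lone library of alizarin at 18 hpf the spread is assumed to be that of the other groups. Depth limits the members with under 50 reads in every library, for which differences could not be resolved.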
